A study of Mus musculus with 3 samples.

Results

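The complement genes *C3*, *C4b*, *C2*, *Cfb*, *Serping1*, *C1ra*, *C1s1* and *Cd55* were followed across the structural cells of the aged mouse thymus. They are 8 of the 32293 features counted and were taken by their symbols. Single-cell RNA sequencing had been done on nonhematopoietic (CD45-) thymic cells of untreated 20-month-old C57BL/6 mice, with thymi pooled before sorting. Each group was a single library (n = 1), and the 3 libraries were Foxn1 lineage trace female (Foxn1Lin female), Foxn1 lineage trace male (Foxn1Lin male) and wild-type male. The lineage trace uses Cre expressed from Foxn1, which is active in thymic epithelium, to remove the stop before a tdTomato reporter in the Rosa26 locus, so cells with an epithelial history keep the reporter. The third library is labelled wild type. The question addressed here is which stromal cells carry complement transcripts, and how their levels compare between cell classes and libraries.

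Complement is a cascade of plasma and membrane proteins that tags particles for uptake and can open pores in membranes. In the classical route the protease encoded by *C1ra* activates that encoded by *C1s1*, which cuts the C4 and C2 proteins, in the alternative route factor B (*Cfb*) takes the place of C2, and both routes meet at *C3*. *Serping1* encodes C1 inhibitor, which blocks C1r and C1s, and *Cd55* encodes a membrane protein that takes apart the enzymes that cleave C3. The liver is the main source of the plasma proteins, and fibroblasts are among the other cells known to make several of them.

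Cells were put in classes by UMIs (unique molecular identifiers, each standing for 1 captured transcript) of genes outside the complement system. Fibroblasts (FB) had at least 2 UMIs of *Pdgfra*, thymic epithelial cells (TEC) at least 2 of *Epcam*, endothelial cells (EC) at least 2 of *Pecam1*, mural cells at least 5 of *Rgs5* and *Acta2* together, and mesothelial cells (MEC) at least 2 of *Upk3b*. Barcodes that met the rules of more than 1 class were dropped. In the order Foxn1Lin female, Foxn1Lin male and wild type, there were 1852, 864 and 1707 FB, 464, 426 and 867 TEC, 1879, 818 and 857 EC and 426, 449 and 352 mural cells. MEC numbered 338 in Foxn1Lin female and 36 in the wild type, and no barcode of Foxn1Lin male met their rule alone. Levels below are UMIs of a gene per 1000000 UMIs of all genes in the class (CPM), always given in that order of libraries. They are not compared between genes.

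Markers that the rules did not use went with the class names. A list of 5 EC genes summed to between 4280 and 4801 CPM in EC and to at most 291.7 CPM in any other class, and 6 FB genes (*Col1a1*, *Col1a2*, *Col3a1*, *Dcn*, *Lum* and *Dpt*) to between 13898 and 16870 CPM in FB. The same FB genes summed to 9471 and 10292 CPM in MEC, so that MEC shared the matrix genes of FB. They summed to 697 CPM in EC of Foxn1Lin female against 66.8 and 101 CPM in the others. The libraries held 53366016, 33386621 and 61258534 UMIs in 8616, 3583 and 5478 called barcodes, and 26.5%, 12.9% and 9.46% of UMIs lay outside called barcodes. Free RNA was therefore measured in empty droplets of each library, and the level there is called the empty-droplet level. The protocol text in the labels names female mice for every library, and the wild-type library is labelled CD45-PECAM1+ in its cell type field but CD45- in its title. Results without each library are given where they differ.

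The members lie on 4 chromosomes (GENCODE vM21, GRCm38). *C4b* (34728380-34743882), *Cfb* (34856374-34862518) and *C2* (34862604-34898265) lie on the minus strand of chromosome 17, the last pair side by side, and this chromosome also holds *C3* (57203970-57228136). *C1ra* (124512405-124523443, plus strand) and *C1s1* (124530345-124542359, minus strand) are neighbors on chromosome 6. *Serping1* lies on chromosome 2 (84765387-84775444) and *Cd55* on chromosome 1 (130439027-130462744), both on the minus strand. Of the last 500 bases of the longest transcript, where such libraries are read, 38.1% of 50-base words of *C4b* are shared with *C4a*, 19.1% of those of *C1ra* with *C1rb* and 18.0% of those of *C1s1* with *C1s2*. Reads in shared words cannot be given to either copy, so these levels are uncertain to that extent, while *C4a*, *C1rb* and *C1s2* were counted at no more than 2.49 CPM in any of the 5 classes. No such word was shared by the other 5 members.

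Of the 8 members, 4 had an entry in the RefSeq promoter table (GRCm38.p6), and the 250 bases before the start are shown for the 3 whose start equals that of the gene annotation. They include *C3* and *C1s1*, found throughout FB below, and *Cd55*, high in 1 FB subset. They are chr17:57228137-57228386, chr6:124542360-124542609 and chr1:130462745-130462994, all on the minus strand, 5′ to 3′. Capitals mark matches on either strand to the C/EBP word TTGCNNAA, the GC box GGGCGG or the NF-kB motif.
C3: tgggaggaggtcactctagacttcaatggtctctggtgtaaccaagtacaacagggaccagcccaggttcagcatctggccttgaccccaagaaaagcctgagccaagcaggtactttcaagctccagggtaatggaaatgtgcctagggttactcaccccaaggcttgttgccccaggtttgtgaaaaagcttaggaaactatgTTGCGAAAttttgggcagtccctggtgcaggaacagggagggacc
C1s1: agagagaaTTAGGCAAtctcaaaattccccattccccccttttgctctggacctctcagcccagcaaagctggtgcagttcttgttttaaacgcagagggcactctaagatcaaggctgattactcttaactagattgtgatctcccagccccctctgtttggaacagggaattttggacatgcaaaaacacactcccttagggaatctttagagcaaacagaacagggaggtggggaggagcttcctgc
Cd55: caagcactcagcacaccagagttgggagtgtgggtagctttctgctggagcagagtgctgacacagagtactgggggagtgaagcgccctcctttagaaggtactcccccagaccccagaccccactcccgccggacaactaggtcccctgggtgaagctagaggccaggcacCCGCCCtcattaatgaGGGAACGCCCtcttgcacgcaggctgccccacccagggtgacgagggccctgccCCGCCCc
The C/EBP word stood once in *C3*, from base -45, and once in *C1s1*, from base -242. It occurred in 9.56% of all 32851 promoter windows of this length. *Cd55* held the GC box from bases -77 and -7 (32.7% of all windows) and the NF-kB motif from base -61 (4.11%), which overlaps no other match. The words TTCNNNGAA and TATAAA were in none of these 3 windows, against 7.02% and 12.4% of all. These are matches of letters and were not tested for binding.

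Complement transcripts were concentrated in FB and MEC. After each barcode was thinned to 2000 UMIs at random (shallower barcodes were left out, numbering 297, 25 and 41 EC and between 0 and 34 in each other class), FB had a UMI of on average 3.75, 3.92 and 4.25 of the 8 genes, and MEC of 4.41 and 5.06. Mural cells followed with 1.37, 1.55 and 1.80, and TEC (0.62, 0.44 and 0.49) and EC (0.57, 0.41 and 0.41) had fewest. The order of FB, mural cells and the pair of TEC and EC was the same in all 3 libraries.

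**Figure D1:**
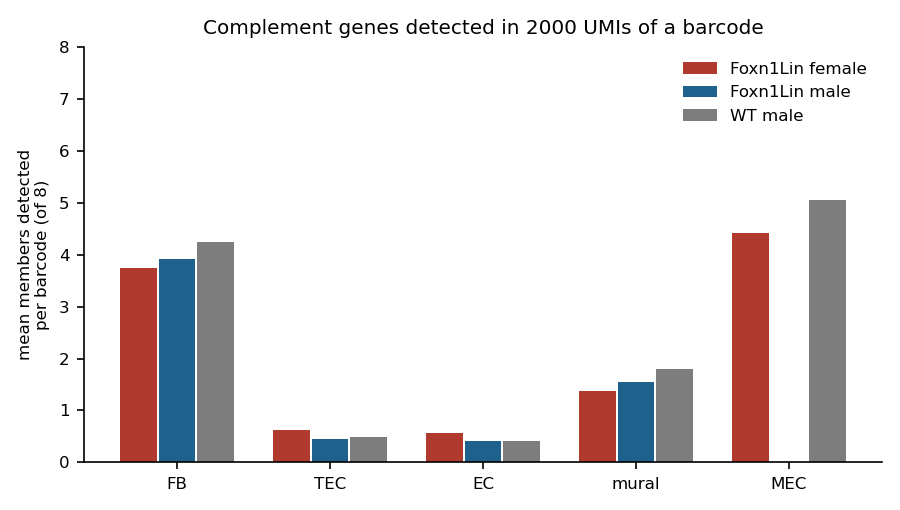
Bars give the mean number of the 8 complement genes with a UMI in a barcode thinned to 2000 UMIs, by class (x axis) and library (color); there is no MEC bar for Foxn1Lin male. FB and MEC stand between 3.75 and 5.06, mural cells between 1.37 and 1.80, and TEC and EC below 0.7.

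Differences between classes were tested on UMI sums per class and library with edgeR's quasi-likelihood test, with the library as a block (n = 3 libraries, 2 for MEC) and Benjamini-Hochberg adjustment over 17595 genes. Fold changes are log2 with the SE derived from the F statistic, and a positive sign means higher in the class named first. Against TEC, all 8 members were higher in FB, with a median log2 fold change of 4.71, where 24.9% of all genes tested were higher in FB and the median over all genes was -0.09. Against EC, 7 of 8 were higher in FB (19.9% of all genes), and against mural cells 5 of 8 (14.1% of all genes). The count against mural cells was 8 without Foxn1Lin female, and also 8 when FB and mural cells were compared alone. Against MEC, 1 of 8 was higher in FB, where 11.7% of all genes were, and none was called higher in MEC, where 9.77% of all genes were. DESeq2 also called none higher in MEC, while *C4b*, *C2* and *Cfb* were higher there at an unadjusted p below 0.05 by either tool. DESeq2 called 11.8% of all genes higher in MEC. Outside FB, the members called in either direction were 3 of 8 between TEC and EC (56.3% of all genes), 5 between TEC and mural cells (48.7%), 8 between TEC and MEC (37.8%), 8 between EC and mural cells (37.2%), 7 between EC and MEC (34.5%) and 6 between mural cells and MEC (26.8%). Without the wild type, 4 members were called between EC and mural cells and 3 each between TEC and mural cells and between mural cells and MEC. Without Foxn1Lin male there were 5 between EC and mural cells, and without Foxn1Lin female 6 between TEC and EC. The 1 member called between FB and MEC became 2 without Foxn1Lin female and 0 without the wild type. The classes differed in many genes, so the counts against TEC and EC stand on a broad background of change.

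The classical proteases *C1ra* and *C1s1*, which act as a pair in the first complex of the cascade, were highest in FB, together with MEC for *C1ra*, and had intermediate levels in mural cells. *C1ra* was at 311, 367 and 366 CPM in FB, 292 and 359 CPM in MEC, 50.9, 101 and 90.9 CPM in mural cells, 21.5, 24.8 and 21.0 CPM in EC and 13.2, 11.7 and 13.7 CPM in TEC. No library of FB overlapped with mural cells, EC or TEC. FB exceeded mural cells by 2.13 ± 0.21 (edgeR adjusted p = 3.23e-05), EC by 3.91 ± 0.22 (1.23e-06) and TEC by 5.07 ± 0.23 (2.11e-07). FB and MEC differed by 0.14 ± 0.23, which did not pass (adjusted p = 0.733).

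*C1s1* had the smallest step between FB and mural cells that passed the test. It was at 575, 727 and 1014 CPM in FB and 220, 303 and 419 CPM in mural cells, a difference of 1.31 ± 0.18 (edgeR adjusted p = 0.000293), and within each library FB were 2.62-, 2.40- and 2.42-fold higher. It was also the member called between FB and MEC, at 301 and 590 CPM in MEC (1.02 ± 0.21, adjusted p = 0.00491). That call was lost without the wild-type library, when MEC were left with 1 library (adjusted p = 0.126), and without the library block (0.0700). EC (40.5, 34.3 and 45.8 CPM) were above TEC (18.6, 15.1 and 23.3 CPM), with a fold change of TEC against EC of -1.47 ± 0.18 (edgeR adjusted p = 5.79e-05). *C1ra* was likewise higher in EC (-1.16 ± 0.21, 0.000709). Yet both classes lay below the empty-droplet levels of 225, 269 and 517 CPM for *C1s1* and 83.6, 80.5 and 98.5 CPM for *C1ra*. For both genes, mural cells were below these levels in Foxn1Lin female and the wild type and above them in Foxn1Lin male.

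*Serping1*, whose protein restrains these proteases, was the member highest in mural cells when set against its empty-droplet level. FB had 1428, 1542 and 1591 CPM, MEC 1570 and 1332 CPM and mural cells 511, 790 and 721 CPM, while TEC (35.5, 22.4 and 26.0 CPM) and EC (84.0, 22.1 and 22.8 CPM) were far lower. After thinning, a UMI was found in 90.5%, 90.8% and 90.8% of FB and in 57.1%, 72.7% and 70.3% of mural cells, against 5.99%, 2.20% and 3.79% of TEC. Mural cells were 1.51-, 1.87- and 1.98-fold above the empty-droplet level, the only non-FB, non-MEC class above it in every library for any member. The fold change of FB over mural cells was 1.15 ± 0.40 and missed the threshold (edgeR adjusted p = 0.0514). It passed without Foxn1Lin female (0.996, adjusted p = 0.00107), with DESeq2 and when FB and mural cells were compared alone. Both other classes were below mural cells, with fold changes of -4.99 ± 0.47 for TEC (adjusted p = 1.17e-05) and -4.12 ± 0.46 for EC (4.41e-05).

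**Figure D2:**
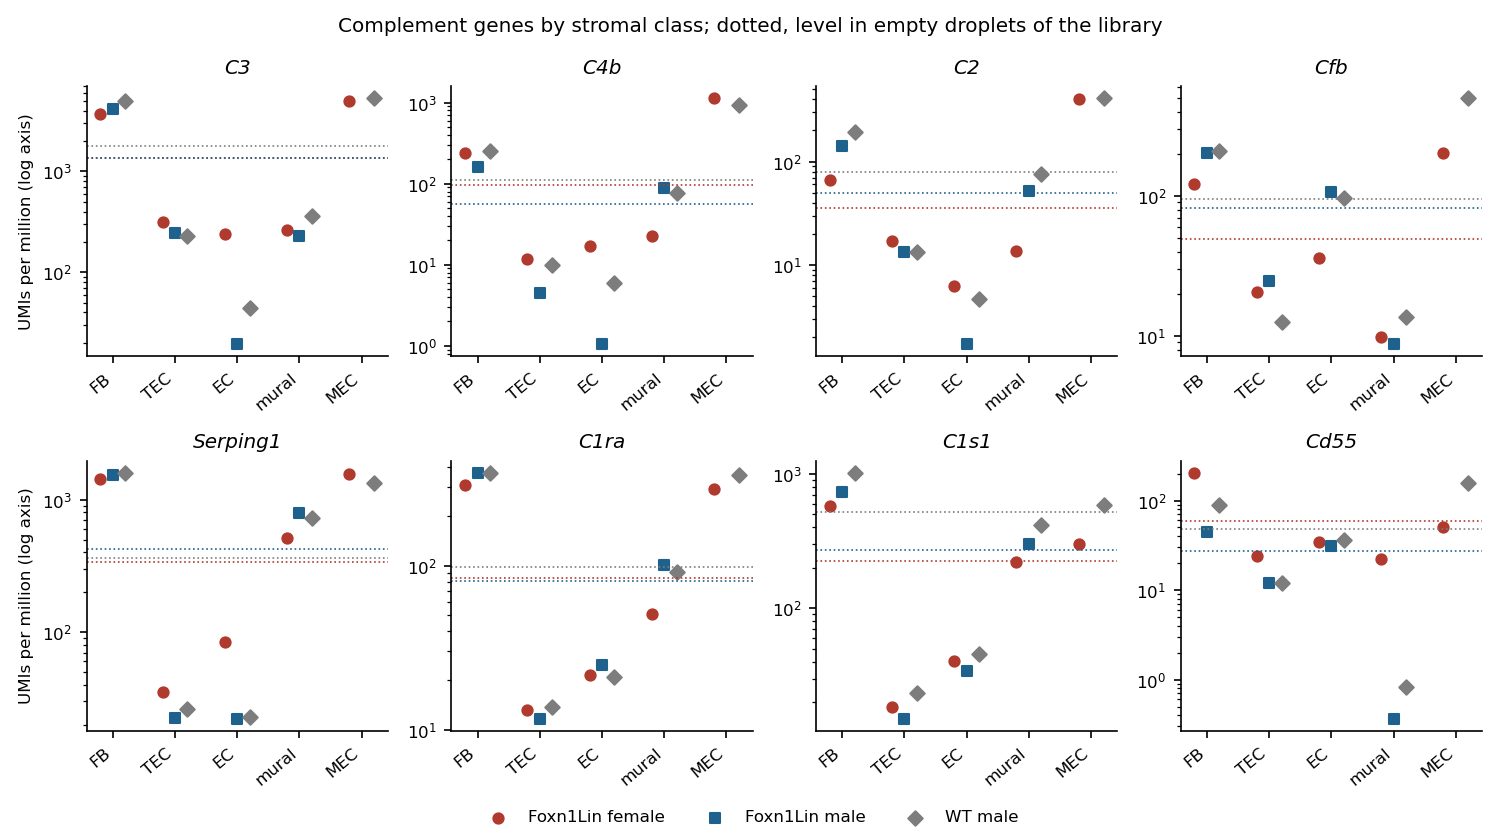
Each panel plots 1 gene; points are the CPM (log axis) of each library (color and shape) by class, and dotted lines the empty-droplet level of the library in the same color. TEC lie below the dotted line of their library for every gene, and *Serping1* in mural cells lies above it in all 3.

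*C4b* and *C2*, substrates of C1s that together form the classical enzyme that cleaves C3, were highest in MEC. *C4b* was at 1129 and 942 CPM in MEC against 238, 159 and 256 CPM in FB. *C2* was at 407 and 409 CPM in MEC against 65.6, 143 and 191 CPM in FB. Neither gene's MEC values overlapped with those of FB, and after thinning 76.5% and 63.9% of MEC but 27.8%, 18.8% and 29.4% of FB had a UMI of *C4b*. The log2 fold changes of FB against MEC were -1.92 ± 0.71 for *C4b* (edgeR adjusted p = 0.0811) and -1.59 ± 0.59 for *C2* (adjusted p = 0.0783), and neither passed in the fit of all classes. When the fit held FB and MEC alone, *C4b* (-2.01), *C2* (-1.82) and *Cfb* (-0.94) were called higher in MEC. Their edgeR adjusted p were 7.32e-09, 1.33e-07 and 0.00516. That fit had few sums to estimate the spread from, with MEC from 2 libraries, of which the wild type held 36 MEC.

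In mural cells both genes separated the libraries. *C4b* was at 22.3 CPM in mural cells of Foxn1Lin female but at 87.5 and 77.2 CPM in the others, and *C2* at 13.5 CPM against 52.1 and 75.2 CPM. The differences of FB from mural cells were 1.61 ± 0.66 for *C4b* (edgeR adjusted p = 0.0918) and 1.50 ± 0.52 for *C2* (adjusted p = 0.0524), and without Foxn1Lin female both passed (adjusted p = 0.0357 and 0.00272). *C4b* also passed without Foxn1Lin male (2.30, adjusted p = 0.0435), and both passed when FB and mural cells were compared alone. TEC (11.8, 4.51 and 9.89 CPM of *C4b*) and EC (17.2, 1.05 and 6.03 CPM) were lower than FB in every library, and both comparisons passed (adjusted p = 0.000212 and 0.00037).

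*C3*, where all routes meet, was found in nearly every FB and MEC. FB had 3741, 4141 and 4954 CPM and MEC 4983 and 5320 CPM, and at least 1 UMI was seen in 98.9%, 99.4% and 99.4% of FB, or 96.3% (Clopper-Pearson 95% interval 95.3 to 97.1), 97.4% and 98.2% after thinning. Median depths were 7393, 9388 and 8230 UMIs in FB and 10965, 12429 and 16229 UMIs in TEC, where 72.8%, 51.6% and 64.1% of barcodes had a UMI of *C3*, or 35.3%, 28.6% and 27.8% after thinning. A median of 6, 7 and 8 UMIs of *C3* was left per thinned FB, and the 10% of FB with most *C3* UMIs held 25.5%, 24.5% and 23.8% of them. The median was 0 in thinned TEC of every library. FB were above TEC by 4.41 ± 0.65 (edgeR adjusted p = 0.00021), EC by 5.76 ± 0.72 (8.34e-05) and mural cells by 3.94 ± 0.64 (0.000996). The fit did not tell FB and MEC apart (0.13 ± 0.66, adjusted p = 0.942), and its sign is opposite to the log2 ratios of CPM in both libraries with MEC (-0.41 and -0.10).

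In EC, *C3* differed widely between libraries. It was at 239 CPM in Foxn1Lin female but at 19.3 and 44.3 CPM in the others, the libraries with less RNA outside called barcodes, and the FB marker sum in EC moved the same way. EC of Foxn1Lin female held *C3*, *C4b*, *C2* and *C1s1* at 0.177, 0.180, 0.177 and 0.180 of their empty-droplet levels, *Serping1* and *C1ra* at 0.247 and 0.257, and *Cd55* and *Cfb* at 0.581 and 0.733. TEC had *C3* at 0.235, 0.181 and 0.128 of the empty-droplet level and *Serping1* at 0.105, 0.0531 and 0.0711, so these genes did not keep 1 ratio there. The part of free RNA in the *C3* of TEC and EC was not tested, and neither was that of blood cells. In all, 5 macrophage genes summed to 246, 136 and 97.6 CPM in TEC and to 12.7, 9.04 and 5.26 CPM in FB.

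**Figure D3:**
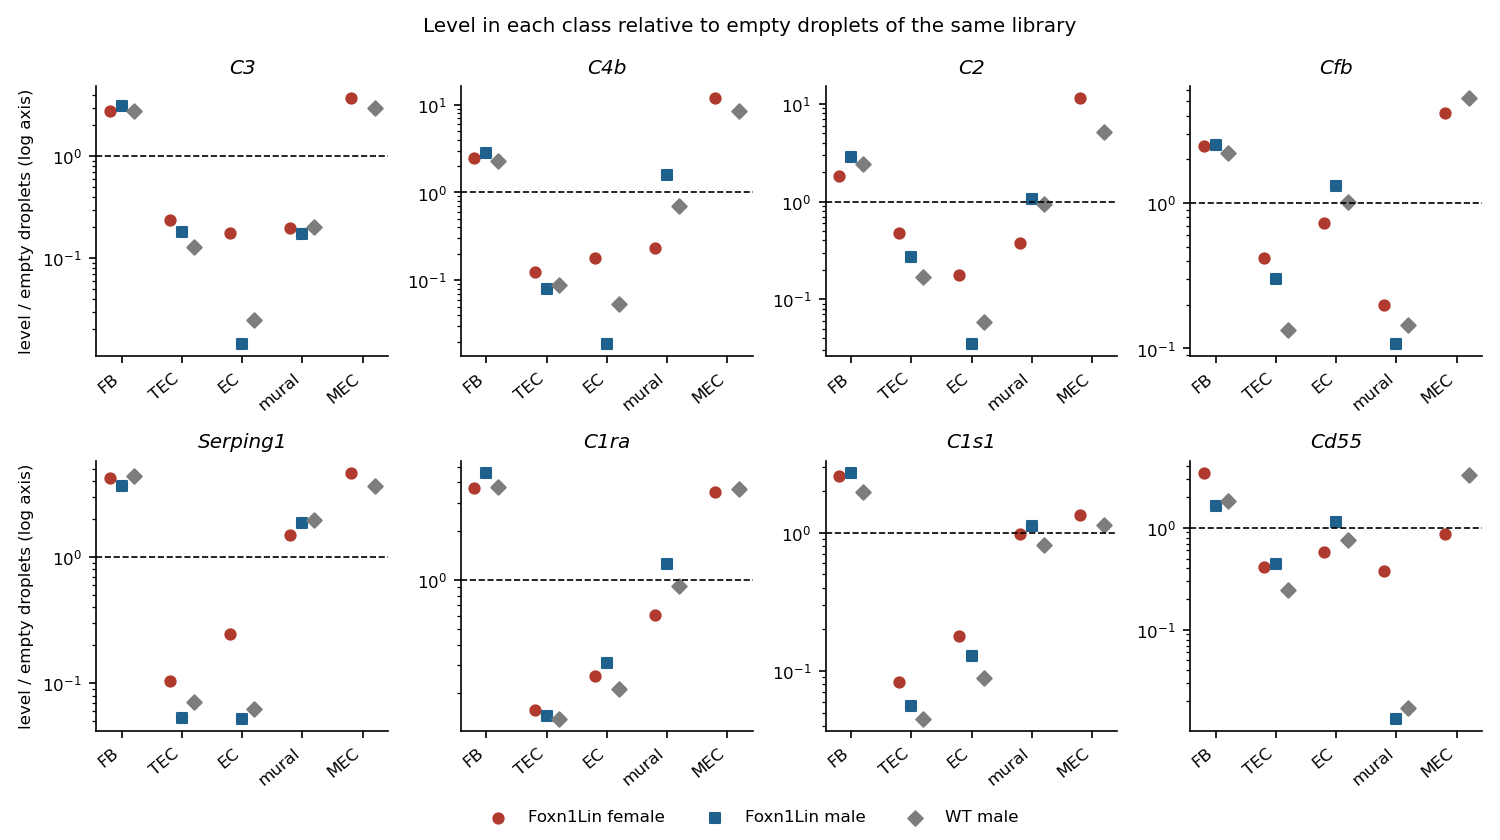
Each panel plots, for 1 gene, the CPM in a class divided by the empty-droplet level of the same library (log axis, dashed line at 1); colors and shapes are libraries. EC fall to 0.014 for *C3* but stand near 1 for *Cfb* and *Cd55*, between 0.581 and 1.31.

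*Cfb*, the protease of the alternative route, was the member highest in EC relative to its empty-droplet level, at 0.733, 1.31 and 1.02 of it. FB had 121, 205 and 210 CPM, MEC 204 and 500 CPM, EC 36.1, 107 and 97.0 CPM, TEC 20.6, 24.7 and 12.7 CPM and mural cells 9.87, 8.75 and 13.7 CPM. EC were above mural cells by 2.87 ± 0.39 (edgeR adjusted p = 0.000178) and above TEC (-2.30 ± 0.35 for TEC against EC, adjusted p = 0.000232). In mural cells *C3* was at 265, 230 and 361 CPM. The 10% of thinned mural cells with most *C3* UMIs held 66.7%, 100% and 87.1% of them. In thinned EC the same share was 68.2%, 100% and 100%, and the median was 0 in both classes. *C3* was called lower in EC than in mural cells (-1.82 ± 0.62, edgeR adjusted p = 0.0398). That difference rested on Foxn1Lin male and the wild type, with log2 ratios of -3.57 and -3.03 against -0.15 in Foxn1Lin female, and the call was lost without either of them (adjusted p = 0.189 and 0.360). A UMI of *Cfb* was left in 6.26%, 15.5% and 13.6% of thinned EC, against 1.53%, 1.38% and 2.04% of mural cells. Among the members, *Cfb* also had the smallest difference between FB and EC that passed (1.18 ± 0.33, adjusted p = 0.0141).

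*Cd55*, the membrane regulator, had its own distribution. FB had 203, 44.9 and 88.5 CPM, MEC 51.1 and 158 CPM, EC 34.2, 30.9 and 36.4 CPM and TEC 24.1, 12.0 and 11.9 CPM. In mural cells it was counted with 43, 1 and 2 UMIs. EC varied little between libraries, while FB of Foxn1Lin female stood above all other sums. FB were above TEC by 3.01 ± 0.67 (edgeR adjusted p = 0.00307) and above mural cells by 4.06 ± 0.79 (0.00318), and the difference from EC, 1.41 ± 0.64, did not pass (adjusted p = 0.106). Without Foxn1Lin female it was 0.83 and passed (adjusted p = 0.0213), as it did when FB and EC were compared alone (1.46, 0.0465). EC exceeded mural cells by 2.65 ± 0.81 (adjusted p = 0.0238), a call that was lost without Foxn1Lin male (1.92, 0.180) or the wild type (2.22, 0.139).

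**Figure D4:**
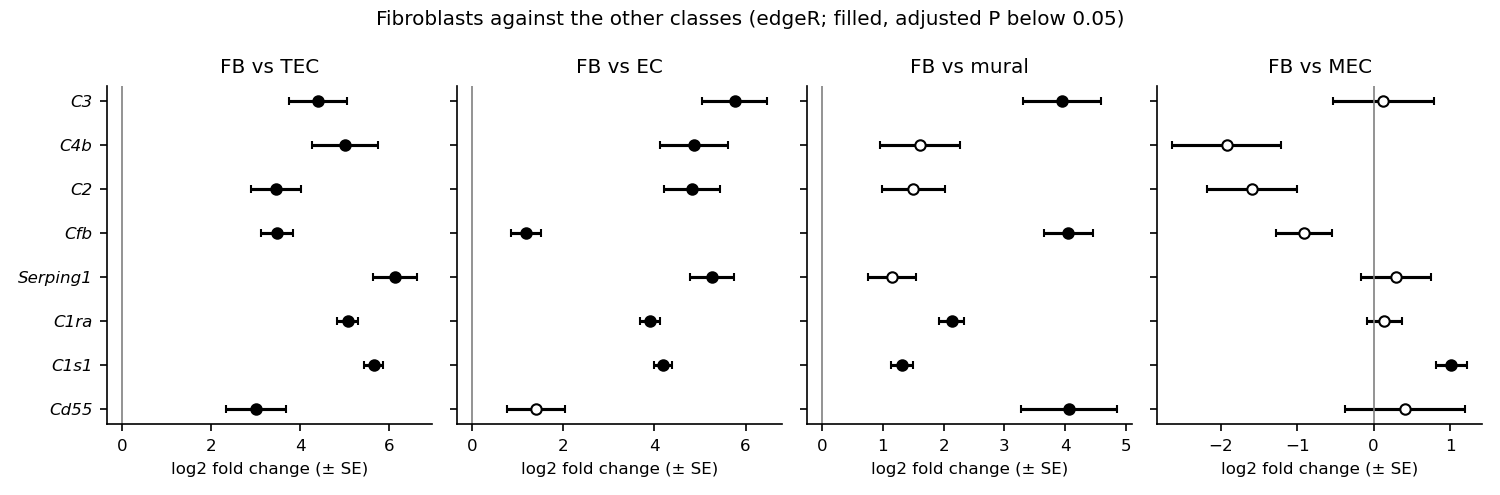
Points are log2 fold changes of FB against TEC, EC, mural cells and MEC (x axis, a separate scale in each panel) for the 8 genes, with bars of ± 1 SE; filled points have an edgeR adjusted p below 0.05. All 8 points are filled against TEC, 7 against EC, 5 against mural cells and 1 against MEC.

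FB were divided by at least 2 UMIs of *Pi16*, at least 3 of *Smoc2* and *Dpep1* together or at least 3 of *Ptn*. When FB of more than 1 subset are dropped, 48, 6 and 12 FB remain in the Pi16 subset, 575, 100 and 212 in the Smoc2/Dpep1 subset and 242, 407 and 681 in the Ptn subset. Sums of fewer than 20 barcodes were left out of the fit, so the Pi16 subset entered from Foxn1Lin female alone. Calls that involve the exclusive Pi16 subset thus take their spread from the other sums and assume that this lone sum varies like them. After this was seen, a second division was added in which the *Pi16* rule takes priority, with 717, 81 and 171 FB in the Pi16 subset. *Dpp4* and *Smpd3*, markers of the Pi16 subset, summed to 999.8, 359 and 1084 CPM in the exclusive Pi16 subset and to 788, 510.3 and 609 CPM with priority. They summed to 196, 111 and 56.6 CPM in the Smoc2/Dpep1 subset and to between 1.77 and 14.3 CPM in the Ptn subset.

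*Cd55* marked the Pi16 subset. With priority for *Pi16* it was at 355, 195 and 280 CPM there, 72.4, 30.3 and 87.7 CPM in the Smoc2/Dpep1 subset and 52.5, 25.9 and 49.1 CPM in the Ptn subset. The lowest Pi16 value was above the highest value of both other subsets. The difference was 2.15 ± 0.17 from the Smoc2/Dpep1 subset (edgeR adjusted p = 5.39e-05 over 10737 genes) and 2.73 ± 0.16 from the Ptn subset (3.75e-07). In the exclusive subsets, with n = 1 library for the Pi16 subset, the fitted differences were 3.53 and 4.09. In these 2 comparisons 2 and 5 of the 8 members were called in either direction with priority, where 6.72% and 26.6% of all genes were, and 1 and 2 in the exclusive subsets, with the Pi16 subset from 1 library, where 3.45% and 8.05% were. With priority, *Cd55* was called in both comparisons without each library in turn, while the count of 2 against the Smoc2/Dpep1 subset became 1 in each case and that of 5 against the Ptn subset became 3 without Foxn1Lin male and 4 without either other library. In the exclusive subsets the 2 became 1 without Foxn1Lin male or the wild type.

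*C4b* and *C2* went in opposite directions between the Smoc2/Dpep1 and Ptn subsets. With priority for *Pi16*, the CPM of both genes was lower in the Pi16 than in the Smoc2/Dpep1 subset in every library. *C4b* was at 301, 310 and 532 CPM in the Smoc2/Dpep1 subset and 157, 121 and 163 CPM in the Ptn subset, and did not overlap (1.34 ± 0.16, edgeR adjusted p = 0.000899 over 12113 genes). *C2* was at 61.6, 121 and 144 CPM in the Smoc2/Dpep1 subset and at 106, 153 and 211 CPM in the Ptn subset, lower in the first in all 3 libraries (-0.56 ± 0.14, adjusted p = 0.0288). These were 2 of 8 members where 13.1% of all genes were called in either direction, and with priority for *Pi16* 4 of 8 were, against 16.6% of all genes. Those 4 became 2 without Foxn1Lin male and 1 without either of the other libraries. The call of *C4b* was kept without each library in turn, and that of *C2* was lost in each case and with DESeq2. With priority for *Pi16*, the Pi16 subset was below the Ptn subset in *C2* (46.9, 73.8 and 103 CPM, -1.07 ± 0.13, adjusted p = 5.83e-05) and above it in *C4b* (202, 232 and 416 CPM, 0.90 ± 0.17, adjusted p = 0.00178). For *C4b* the fitted difference of the exclusive Pi16 subset, from 1 library of 48 FB, was -0.02.

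*C3*, *C1ra* and *C1s1* were found in all FB subsets in every library. With priority for *Pi16*, *C3* ranged from 3486 to 5667 CPM over the 9 sums and *C1ra* from 258 to 440 CPM. The highest value of *C1s1* came from the Smoc2/Dpep1 subset (1155 CPM, wild type) and the lowest from the Ptn subset (529 CPM, Foxn1Lin female). In the fit of the exclusive subsets, none of the 3 genes was called between the Smoc2/Dpep1 and Ptn subsets. The differences there were 0.10 ± 0.13, 0.19 ± 0.15 and 0.23 ± 0.12 (edgeR adjusted p = 0.705, 0.505 and 0.275).

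**Figure D5:**
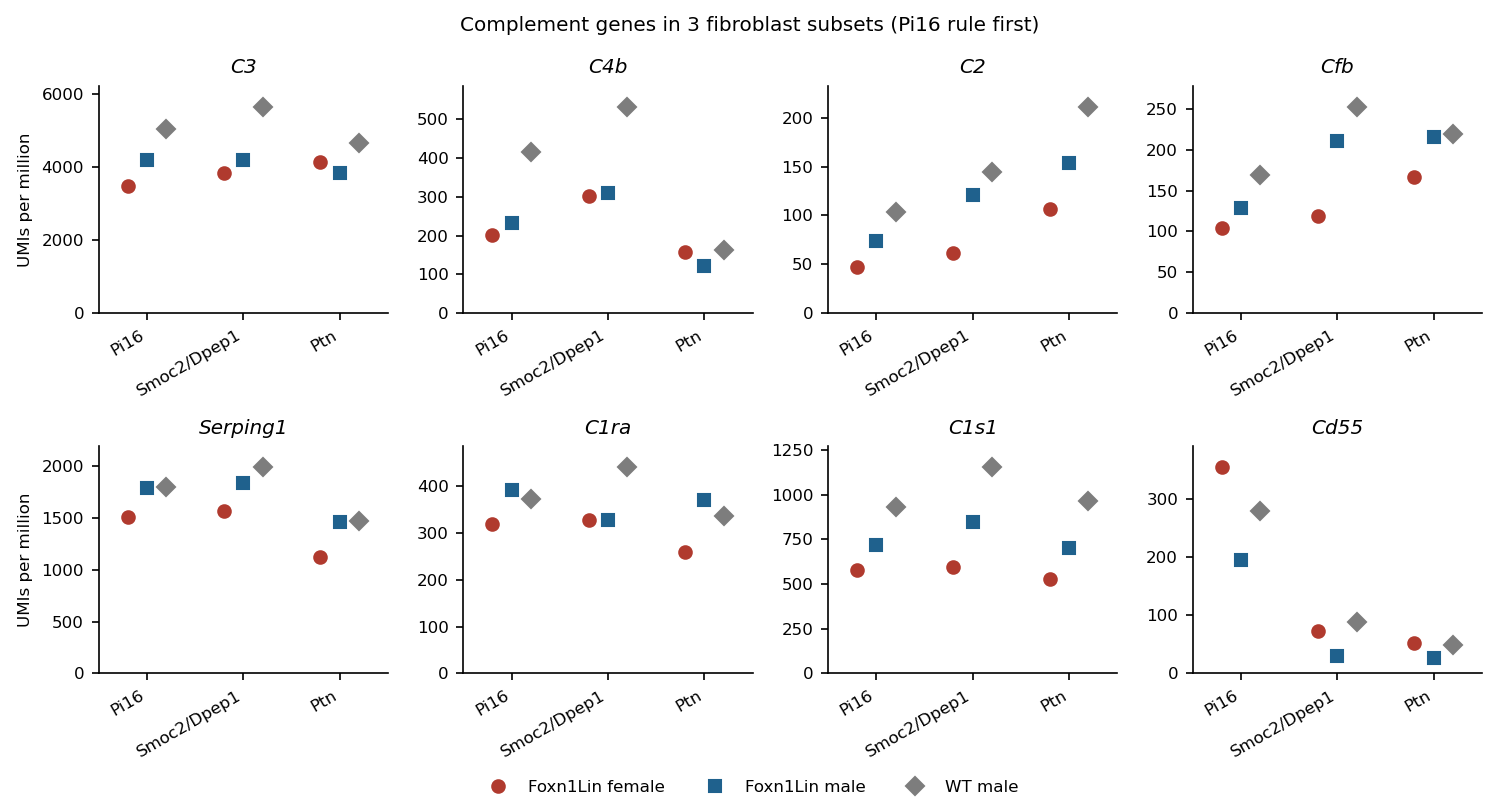
Each panel plots the CPM of 1 gene (linear axis from 0) in the Pi16, Smoc2/Dpep1 and Ptn subsets of FB with priority for the *Pi16* rule; colors and shapes are libraries. *Cd55* lies at 195 CPM or more in the Pi16 subset and at 87.7 CPM or less in the others, *C4b* is lowest and *C2* highest in the Ptn subset.

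Libraries were compared without a test, since each group has 1 library, by the log2 ratio of CPM with an exact 95% interval that covers counting error only. In FB, 2 of 8 members differed by 2-fold or more between Foxn1Lin female and Foxn1Lin male, where 18.7% of the 14452 genes with at least 20 UMIs did. *Cd55* was higher in Foxn1Lin female by 2.18 (2.03 to 2.34) and *C2* lower (-1.12, -1.25 to -0.999). The share of FB with *Pi16* was 38.7%, 9.38% and 10.0%, and *Cd55* in FB was at 203, 44.9 and 88.5 CPM. Both were highest in Foxn1Lin female, while Foxn1Lin male and the wild type had similar shares but unlike *Cd55* levels. When the 3 subsets with priority for *Pi16* were weighted equally, the ratio of *Cd55* was 0.93 and that of *C2* -0.70. Within the Ptn subset, *Cd55* still differed by 1.02 (0.58 to 1.46) and *C2* by -0.53 (-0.79 to -0.27), and within the Smoc2/Dpep1 subset *Cd55* by 1.26 (0.69 to 1.88) and *C2* by -0.98 (-1.30 to -0.64). Sex and everything else that differs between these 2 libraries cannot be told apart.

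Between Foxn1Lin male and the wild type, none of the 8 members differed by 2-fold in FB, where 10.9% of 14038 genes did. *Serping1* (-0.05, -0.08 to -0.01), *C1ra* (0.00, -0.06 to 0.07) and *Cfb* (-0.04, -0.12 to 0.04) were nearest to each other. *Cd55* (-0.98, -1.15 to -0.82) and *C4b* (-0.69, -0.78 to -0.60) were furthest apart, both lower in Foxn1Lin male. Within the Smoc2/Dpep1 subset *Cd55* was past 2-fold, at -1.53 (-2.18 to -0.93), and within the Ptn subset it was at -0.93 (-1.26 to -0.60).

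The genes most like each member in pattern were sought by Pearson's r of log2(CPM + 1) over the 18 sums of a library and class, FB subsets standing in place of FB, among 9822 genes with a mean of at least 10 CPM. Sums of 1 library share its depth and free RNA, so r is a description. *C3* was most like *Dcn* (r = 0.98), *Fbln1* (0.97) and *Rab7b* (0.97), the first 2 being matrix genes. *Serping1* was most like *Clip3*, *Twist1* and *Ndn* (0.98 each), *C1ra* like *Ndn*, *Podn* and *Creb3l1* (0.97 each), and *C1s1* like *P3h3* (0.98), *Sgce* (0.97) and *Serping1* (0.97). *C4b* was most like *Akt2* (0.95), *Adam33* (0.94) and *Col3a1* (0.94), and *C2* like *Ninl* (0.96), *Ccdc80* (0.94) and *C4b* (0.93). *Cfb* was most like *St3gal1* (0.93), *Ghr* (0.92) and *Tram1* (0.91), and *Cd55* like *Rab11fip5* (0.91), *Tbc1d20* (0.90) and *Tmtc2* (0.88). Among the members, r was highest for *Serping1* with *C1s1* (0.97) and lowest for *C2* with *Cd55* (0.17).

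Of 46 other complement genes on the list, 45 were among the features and 30 had counts enough for the test. In FB, 12 of the 30 were higher and 8 lower than in TEC, where 24.9% of all genes were higher and 30.1% lower. Against EC 9 were higher and 6 lower (19.9% and 19.7% of all genes), against mural cells 4 and 4 (14.1% and 14.3%) and against MEC 6 and 3 (11.7% and 9.77%). Their median log2 fold changes were -0.43, 0.62, 0.27 and 0.77, and those of all genes -0.09, -0.04, 0.01 and 0.14. *Colec12*, a collectin scavenger receptor, was higher in FB in all 4 comparisons, at 314, 603 and 823 CPM in FB and at most 284 CPM in any other class. *C7*, a part of the membrane pore, was also higher in all 4, at 41.5, 305 and 343 CPM in FB and at most 70.7 CPM elsewhere, lowest in FB of Foxn1Lin female. *Masp1*, a protease of the lectin route, passed in all 4 with 4.96, 21.9 and 22.4 CPM in FB and 0 UMIs in both MEC sums. *Cd59a*, which blocks the pore, was lower in FB in all 4, at 2.38, 1.39 and 2.23 CPM against 41.8, 50.9 and 29.1 CPM in EC (-4.35 ± 0.38, edgeR adjusted p = 7.74e-06).

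The regulators among the other listed genes had further patterns. *Vtn* was called in all 4 comparisons, higher in FB than in TEC, EC and MEC but lower than in mural cells (30.5, 78.7 and 32.1 CPM against 153, 144 and 113 CPM, -1.57 ± 0.52, edgeR adjusted p = 0.0435). *Clu*, which encodes clusterin, was highest in MEC (1171 and 977 CPM against 110, 43.2 and 340 CPM in FB, -2.63 ± 0.58, adjusted p = 0.00803). *Csmd1*, a very long gene for a membrane protein with complement control domains, was at 1564, 5698 and 7745 CPM in FB and 22.8 and 8.80 CPM in MEC.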

How the data were processed

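CD45- thymic stromal cells were profiled with 10x Genomics 3′ single-cell RNA-seq in 3 libraries. The authors aligned and counted reads with Cell Ranger 7.0.1 against a custom mm10 reference with reporter sequences, and deposited UMI counts per barcode and gene in filtered and raw matrices, as well as metrics summaries that give percent values such as sequencing saturation (52.1%, 81.0% and 72.8%). Members and gene lists were chosen with earlier results of these data known.

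Barcodes with at most 1000 genes and at least 20% mitochondrial UMIs were removed (138, 149 and 222), and classes were set by the marker counts given above. Barcodes in 2 classes (594, 174 and 445) and in none (2925, 703 and 992) were left out. Between 3 and 14 barcodes were shared by pairs of libraries. Doublets were not removed; leaving out the barcodes with the highest Scrublet scores was an alternative. Empty-droplet levels came from barcodes outside the called set with 142 to 565, 23 to 89 and 29 to 112 UMIs. UMIs were summed per library and class and tested with edgeR 4.0.16 (quasi-likelihood, TMM, library block, R 4.3.3), after edgeR's filter on low counts and without sums of fewer than 20 barcodes, with Benjamini-Hochberg adjustment at 0.05. The script was tested on simulated data. Alternatives were other size factors, no filter on low counts, DESeq2 1.42.0, no library block, each library left out, 2 classes alone, and stricter or looser rules for barcodes and classes. Classes share libraries and nothing says that cells came from separate animals. With the library as a block, p-values measure the spread of class differences across these libraries, estimated over all classes of a fit. Intervals are exact (Clopper-Pearson, or conditional on the counts for ratios) and cover counting error only. Pattern genes were the 3 with the highest r for each member; other complement genes were named when among the 5 highest in FB or called in all 4 FB comparisons. A gene that this rule names is not reported here.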

Additional observations from a re-analysis of the deposited data

Results flagged for a closer look

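Some differences between classes went in opposite directions in different libraries, and these differences were not tested. They are log2 ratios of CPM of single libraries. *Serping1* in FB against MEC was -0.14 in Foxn1Lin female and 0.26 in the wild type. *Cd55* in FB against MEC was 1.99 in Foxn1Lin female and -0.84 in the wild type. *C4b* in TEC against EC was -0.54 in Foxn1Lin female but 2.10 in Foxn1Lin male, with 0.71 in the wild type. *C3* in TEC against mural cells was 0.26 in Foxn1Lin female and -0.66 in the wild type.

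Barcodes that met no class rule, which no comparison used, held 5 of the members above the empty-droplet level in every library. In the order Foxn1Lin female, Foxn1Lin male and wild type, *C3* was at 2226, 1820 and 2350 CPM there. *C4b* was at 172, 173 and 209 CPM and *C2* at 46.9, 75.5 and 95.3 CPM. *Serping1* was at 796, 822 and 795 CPM and *C1ra* at 167, 186 and 175 CPM.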

How the results depend on the processing

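Counts below are members called of 8 by adjusted p. Without each library in turn the counts ranged from 8 to 8 for FB against TEC (main 8), 7 to 8 against EC (7), 5 to 8 against mural cells (5) and 0 to 2 against MEC (1). They ranged from 3 to 6 for TEC against EC (3), 3 to 6 for TEC against mural cells (5), 4 to 8 for EC against mural cells (8) and 3 to 6 for mural cells against MEC (6). For TEC against MEC the range was 7 to 8 (8), and for EC against MEC 7 to 8 (7). Comparing 2 classes alone gave 8 for FB against mural cells, 4 for FB against MEC and 5 for EC against mural cells, and FB against MEC was 0 without the library block. TEC against EC gave 5 with library size only, without a filter on low counts, with DESeq2, in the classes alone and without the highest Scrublet scores. The Pi16 subset against the Smoc2/Dpep1 subset gave 1, and 2 without a filter on low counts, with DESeq2, with 1 UMI more in each rule, without the highest Scrublet scores, without barcodes with *Ptprc* and with priority for *Pi16* (1 without each library). The Pi16 subset against the Ptn subset gave 2, and 1 with DESeq2, without the library block or on leaving out Foxn1Lin male or the wild type (without Foxn1Lin female the exclusive Pi16 subset could not be fitted), and 5 with priority for *Pi16*, also with DESeq2 (3 to 4 without each library). The Smoc2/Dpep1 subset against the Ptn subset gave 2, and 1 with DESeq2, without the library block or without each library, and 4 with priority for *Pi16* (1 to 2 without each library). The 2 members past 2-fold between Foxn1Lin female and male FB became 1 with the 3 subsets weighted equally and 0 with priority for *Pi16*. *C3* in FB against MEC (main 0.13, 0.20 without Foxn1Lin female) turned to -0.14 without the library block, -0.12 without Foxn1Lin male and -0.20 in the classes alone, and *Cd55* to -0.88 without Foxn1Lin female (1.69 without the wild type). *C4b* in the Pi16 against the Ptn subset turned to 0.01 with other size factors (0.0117) or library size only (0.00557), to 0.00402 with DESeq2, and with priority for *Pi16* to 0.90, also with DESeq2, and to 0.65, 0.91 and 1.15 without each library. The causes were not tested. Every group has 1 library, so no difference between groups has a replicate check, and 36 MEC and 12 exclusive Pi16 FB limit the wild-type values. Classes were compared within libraries, with the library as a block. Between the groups no pairing exists, since each holds 1 library and the labels number no replicates.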

Other observations

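*C1qa*, *C1qb* and *C1qc*, the chains of the C1q protein that carries C1r and C1s, were looked at after their values were seen. *C1qb* was at 16.0, 6.37 and 9.56 CPM in TEC and at 1.26, 1.85 and 0.920 CPM in FB, in the order Foxn1Lin female, Foxn1Lin male and wild type. *C1qa* was at 12.0, 1.55 and 4.01 CPM in TEC and at 1.33, 2.20 and 1.12 CPM in FB. *C1ra* and *C1s1* had their highest levels in FB and MEC, with mural cells next, whereas the C1q genes stood at low levels in FB. In TEC the 5 macrophage genes summed to 246, 136 and 97.6 CPM, and their part in the C1q levels was not tested.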
